A study of Rattus norvegicus with 8 samples.

Results

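Among the 30560 genes of the deposited matrix, 7 encode transcription factors tied to the identity of nodose and jugular sensory neurons and are described here. They are Phox2a (ENSRNOG00000019706), Prdm12 (ENSRNOG00000009218), Isl1 (ENSRNOG00000012556), Pou4f1 (ENSRNOG00000060662), Tlx3 (ENSRNOG00000004976), Runx1 (ENSRNOG00000001704) and Runx3 (ENSRNOG00000054217). They were chosen by symbol, and each had exactly 1 entry. Prdm12 was high in the neuron clusters called Drgx-rich below and close to absent from the others, some of which also carried Drgx. Runx3 and Runx1 were high in different clusters, and most Phox2a UMIs lay in 5 of 25 clusters. Isl1 and Runx1 were read in neurons of every cluster, and Tlx3 stayed low throughout.

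The vagal ganglia hold sensory neurons of separate embryonic origin. Nodose neurons come from an epibranchial placode and use paired-like homeodomain factors such as Phox2a, whereas jugular neurons come from the neural crest and resemble somatic sensory neurons, which carry the homeodomain factor Drgx and, among nociceptors, the PRDM-family regulator Prdm12. Isl1 (a LIM homeodomain factor), Pou4f1 (a POU homeodomain factor, also called Brn3a) and Tlx3 (a homeobox factor linked to glutamatergic fate) act broadly in sensory neurons. The runt-domain factors Runx1 and Runx3, which bind DNA with the partner Cbfb, are best known for dividing somatic sensory neurons into nociceptor and proprioceptor lineages.

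Nuclear RNA was read in single nuclei of nodose ganglia from untreated Long Evans rats aged 8 weeks, 18 male and 18 female. Each of 12 pools joined the left or the right ganglia of 6 rats, 3 for every combination of labelled sex and side, written ML, MR, FL and FR with a replicate number. With 18 rats per sex, left and right pools of a sex would draw on the same animals, so p-values over pools measure the spread between pools that may not be independent. The nuclei were then spread over 8 sublibraries that each hold all pools.

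The 36740 nuclei kept had a median of 2680 UMIs (unique molecular identifiers, 1 per captured transcript), and pools held 7139364 to 19456287 UMIs. Y-linked transcripts went against the sex label in 2 pools. ML1 had 2.88 CPM (counts per 1e6 UMIs of the nuclei summed) where the remaining male-labelled pools had 84.4 to 91.3 CPM, and FL1 had 88.65 CPM where the remaining female-labelled pools had 2.73 to 3.95 CPM. Of 34798 combinations of barcoding wells, 1865 occurred in more than 1 sublibrary, and every first-round well held 1 pool.

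Neurons numbered 25071 nuclei in 25 clusters, numbered n0 to n28 and formed without the 7 genes. Nodose-like neurons were 17341 nuclei in 11 clusters, jugular-like neurons 2368 nuclei in 4 clusters, and 5362 nuclei in 10 clusters stayed unnamed. A jugular-like cluster was Drgx-rich and had at least 3 jugular markers raised, and 7 clusters met the Drgx condition (2977 nuclei, 11.9% of neurons). Drgx-rich means Drgx UMIs of at least 10 times those of a gene not reported here, whatever the Drgx level. Both names were given from marker lists without the 7 genes, but cells were clustered on genes that vary with them, so every contrast between types below is a description with no test. Markers of other cells were read in both classes. The 7 satellite glia markers summed to 70.02 to 135.6 CPM per pool in nodose-like and 79.2 to 255.1 CPM in jugular-like neurons, against 1803 to 2687 CPM in satellite glia. The 7 markers of myelinating Schwann cells summed to 345.5 to 510.4 CPM in nodose-like and 429.4 to 648.3 CPM in jugular-like neurons. The 8 markers of sympathetic or chromaffin-type cells, with Pnmt at 0 in both, summed to 51.45 to 69.45 CPM and 50.25 to 190.8 CPM. The 7 macrophage markers reached 10.52 and 27.07 CPM at most, with Aif1 at 0 in jugular-like neurons, and the 6 markers of T or NK cells 32.99 and 21.2 CPM, with Nkg7 at 0 in both and Cd3g at 0 in jugular-like neurons. The part of these cells in the differences between the types was not tested.

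RNA of neurons was also read in glia. The 12 neuron markers summed to 8683 to 11480 CPM per pool in satellite glia and to 9390 to 11440 CPM in nodose-like neurons. Levels in satellite glia are therefore given beside those of neurons, but that class is not a reference free of neuronal RNA. The part of free RNA, or of glia and neurons captured together, in any level was not tested.

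Prdm12 was high in clusters that also carried Drgx, Phox2a was high in others, and Runx1 and Runx3 were high in different clusters. The sequences before the annotated start sites of 6 entries are therefore shown. They are the 250 bases before the start in RefSeq (build GRCr8, while the authors' files use mRatBN7.2), 5′ to 3′ on the gene's strand. All 7 genes had an entry, and Prdm12 and Runx3 had a pair each. Capitals mark the homeodomain core TAAT on either strand in the first 4 sequences. The windows are chr3:35322712-35322961 (+) and chr3:35325758-35326007 (+) for Prdm12, chr16:7860907-7861156 (+) for Drgx, and chr1:165590507-165590756 (+) for Phox2a.
Prdm12, first start: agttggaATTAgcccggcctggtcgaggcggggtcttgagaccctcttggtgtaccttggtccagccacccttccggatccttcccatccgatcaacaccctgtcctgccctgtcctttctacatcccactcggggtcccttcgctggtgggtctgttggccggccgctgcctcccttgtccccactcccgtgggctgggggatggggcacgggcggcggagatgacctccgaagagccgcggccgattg
Prdm12, second start: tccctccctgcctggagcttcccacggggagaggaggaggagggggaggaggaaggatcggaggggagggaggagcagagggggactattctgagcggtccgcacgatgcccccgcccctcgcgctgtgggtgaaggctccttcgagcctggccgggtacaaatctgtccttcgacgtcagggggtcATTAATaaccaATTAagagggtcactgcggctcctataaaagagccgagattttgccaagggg
Drgx: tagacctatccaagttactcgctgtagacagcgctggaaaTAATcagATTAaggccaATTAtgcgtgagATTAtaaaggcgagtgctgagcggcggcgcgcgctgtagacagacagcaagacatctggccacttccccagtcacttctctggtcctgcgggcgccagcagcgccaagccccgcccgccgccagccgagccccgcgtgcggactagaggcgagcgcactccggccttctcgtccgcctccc
Phox2a: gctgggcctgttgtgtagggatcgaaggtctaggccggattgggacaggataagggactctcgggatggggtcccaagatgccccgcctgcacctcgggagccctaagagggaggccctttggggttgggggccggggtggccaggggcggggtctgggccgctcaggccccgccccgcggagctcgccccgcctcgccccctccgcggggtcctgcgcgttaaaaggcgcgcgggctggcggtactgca

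The core TAAT occurred 1 time before the first Prdm12 start, 3 times before the second and 4 times before Drgx, overlapping matches included, and 0 times before Phox2a. Of 33469 windows of this length, 57.0% held it, so its presence is common. GC content was 72.0% in the Phox2a window and 61.6% in the second Prdm12 window. Among the other members Tlx3 had 5 matches, Isl1 and Runx1 1 each, and Pou4f1 and both Runx3 windows 0.

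In the Runx windows capitals mark the runt-domain motif TGTGGT on either strand, which 14.5% of all windows held. They are chr11:45421326-45421575 (-) for Runx1 and chr5:152644020-152644269 (+) for the first Runx3 start.
Runx1: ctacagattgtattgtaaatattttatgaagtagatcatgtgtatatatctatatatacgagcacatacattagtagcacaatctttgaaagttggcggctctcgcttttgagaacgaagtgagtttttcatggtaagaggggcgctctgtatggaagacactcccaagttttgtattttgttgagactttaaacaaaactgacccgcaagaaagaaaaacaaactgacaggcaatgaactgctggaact
Runx3, first start: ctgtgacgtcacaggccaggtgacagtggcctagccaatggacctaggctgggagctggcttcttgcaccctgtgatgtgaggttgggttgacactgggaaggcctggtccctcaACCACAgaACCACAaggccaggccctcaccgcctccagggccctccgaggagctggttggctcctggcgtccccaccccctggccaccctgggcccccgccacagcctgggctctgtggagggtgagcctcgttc

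The first Runx3 window had 2 matches, and the Runx1 window and the second Runx3 window had 0. The Runx1 window was the poorest in GC among the members, at 37.2% against 66.4% and 76.8% for the Runx3 pair. A match is a run of letters and not a measured binding site.

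**Figure D1:**
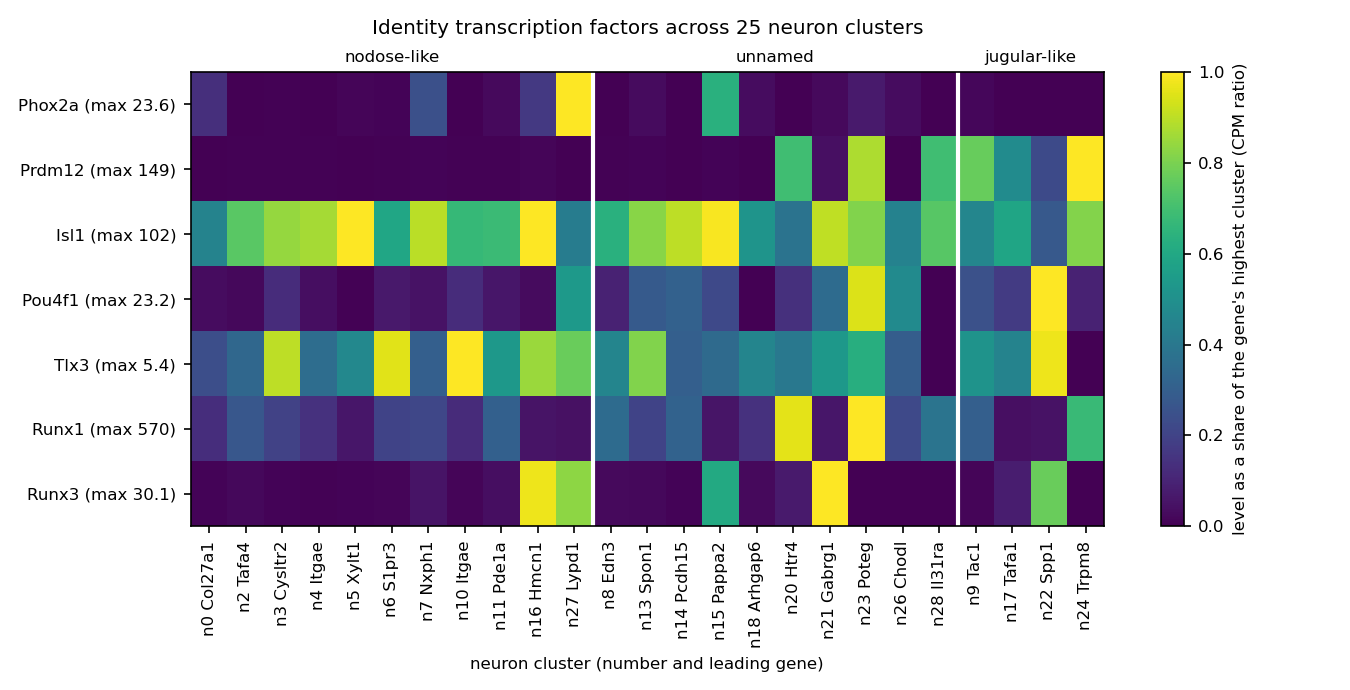
Levels of the 7 genes in 25 neuron clusters, each row scaled to its highest cluster (CPM given beside the name), with clusters grouped as nodose-like, unnamed and jugular-like. Prdm12 stands out in the jugular-like n9, n17 and n24 and in n20, n23 and n28, and less in the jugular-like n22. Runx3 is bright in n15, n16, n21, n22 and n27, and Phox2a in n27 and n15.

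Phox2a, the nodose-side member, was rare and patchy. Over 25071 neurons it had 129 UMIs, and 87.6% of them lay in 5 clusters with 25.8% of the neurons. The highest was n27 (led by Lypd1, Pappa2 and Apoe) at 23.6 CPM (95% exact Poisson interval 13.7 to 37.7, counting error only), a cluster of 58 nuclei with the glial gene Apoe among its leading genes. Next came n15 (Pappa2, Csmd3, Nox4) at 14.99 CPM, with UMIs in 11 of 12 pools, and n7 (Nxph1, Rnf220, Eya4) at 5.71 CPM. The remaining pair was n16 (Hmcn1, Agtr1a, Grin2a) at 3.89 CPM and n0 (Col27a1, Fhip1a, Kirrel3) at 3.20 CPM, beside 2.02 CPM in satellite glia. Among neighbours in this order only n15 and n7 had Poisson intervals apart, and n27, with 10 nuclei in a single pool, has no SD over pools.

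Much of the nodose-like population gave no Phox2a UMI. Cluster n2 (Tafa4, Esr1, Crhr2) had 0 among 8343309 UMIs, where 3 UMIs would be 0.360 CPM, and n10 (Itgae, Cyp26b1, Ntsr1) had 0 among 8146128, where 3 would be 0.368 CPM. Of the 11 nodose-like clusters, 3 had no Phox2a UMI (n2, n4, n10). Across 12 pools nodose-like neurons had 0.6245 to 2.64 CPM of Phox2a (median 1.20). Jugular-like neurons had 0 UMIs in 10 pools and 1 each in 2 pools, 2 UMIs in all, with pool ranges that overlapped. The level was lower in jugular-like neurons in 12 of 12 pools, with means of 0.143 against 1.34 CPM. The log2 ratio of jugular-like over nodose-like levels (5 CPM added to each) was -0.30 ± 0.17 (SD, n = 12 pools). The 5 CPM added is larger than both levels and shrinks this ratio. It also shrinks the ratios below, most for members with a type mean under 5 CPM. In a cluster of 311 nuclei with markers of sympathetic or chromaffin-type cells, which also use this gene, Phox2a had 8 UMIs in 6 nuclei. That was 7.97 CPM (interval 3.44 to 15.7), with no UMI in 9 of 12 pools.

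Prdm12 was the member that separated the types. Jugular-like neurons had 92.7 ± 12.8 CPM and nodose-like neurons 0.690 ± 0.589 CPM (SD, n = 12 pools). The lowest jugular-like pool was FL1 at 74.2 CPM, the median 95.3 CPM and the highest MR3 at 115.8 CPM. Nodose-like pools ran from 0 to 1.96 CPM with a median of 0.549 CPM. The ranges did not overlap, and the log2 ratio was 4.097 ± 0.16 (higher in 12 of 12 pools). The jugular-like mean was 134 times the nodose-like mean, more than this ratio gives, because 5 CPM was added to both levels. Ranges of all 12 pools parted in this direction for 3.95% of 13972 genes. It was the only member of 7 whose ranges parted in either direction, against 4.85% of genes that parted with nodose-like neurons higher.

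Within the Drgx-rich clusters Prdm12 was graded. It was highest in n24 (Trpm8, Plcd4, Cdh8) at 148.8 CPM and n23 (Poteg, Kcnj6, Cdh9) at 130.3 CPM, followed by n9 (Tac1, Calca, Gfra3) at 114.1 CPM. The clusters n28 (Il31ra, Hs6st2, Pkhd1) and n20 (Htr4, Hs6st2, Gna14) had 103.1 and 103.0 CPM, and n17 (Tafa1, Ccdc172, Ntm) had 71.9 CPM. The lowest was n22 (Spp1, Kcna1, Nefh, genes of large myelinated neurons) at 33.7 CPM (interval 23.1 to 47.6). These 7 clusters held 93.9% of the 1152 Prdm12 UMIs of neurons, and per pool 94.3 ± 14.6 CPM against 0.831 ± 0.570 CPM in all other neurons (SD, n = 12). Every other cluster had at most 1.77 CPM apart from n21 (Gabrg1, Syndig1, Tmem196) at 6.36 CPM, and satellite glia had 4.17 CPM. Over the pools with at least 10 nuclei n17 had 72.6 ± 19.07 CPM and n22 34 ± 29.3 CPM (SD, n = 11 each), neighbours that differed by more than the larger SD. Cluster n28 had only 2 such pools, with a mean of 45.8 CPM against 87.4 CPM over 8 pools for n20, so its place in this order is not settled.

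Drgx did not always come with Prdm12. The clusters n7, n13 (Spon1, Tacr1, Tmem233) and n14 (Pcdh15, Ndst4, Nxph1) carried Drgx at 28.3, 26.02 and 43.9 CPM. Of these n14 was near the 41.97 CPM of n9, and n7 and n13 were lower. Their Prdm12 stood at 1.36, 1.31 and 0.328 CPM, which for n14 was 1 UMI beside 134 of Drgx. Over the 23 clusters with at least 100 nuclei Prdm12 correlated with Drgx at r = 0.83 on the log2 scale (5 CPM added). Those clusters share libraries and the correlation is a description.

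**Figure D2:**
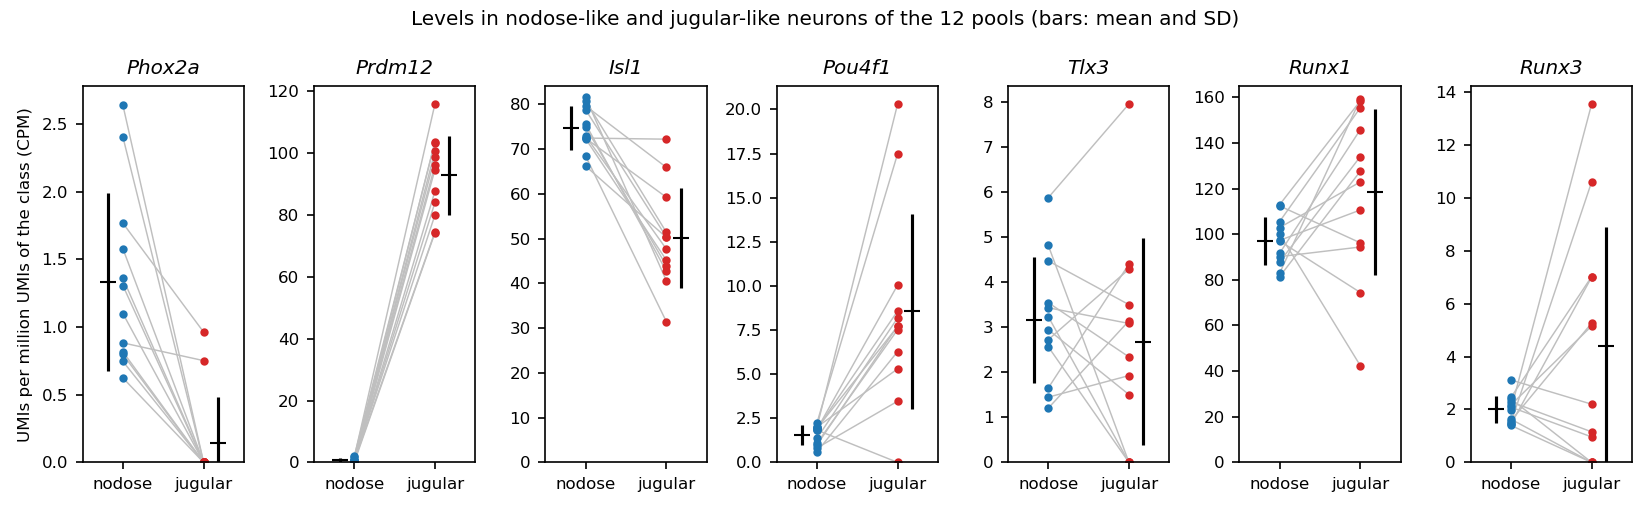
CPM of each member in nodose-like (blue) and jugular-like (red) neurons, with 1 point per pool, grey lines joining a pool's values, and bars for mean and SD over 12 pools. Prdm12 ranges lie apart (at most 1.96 against at least 74.2 CPM), and the ranges of the other 6 members overlap. Isl1 and Phox2a are lower in jugular-like neurons in 12 of 12 pools.

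Isl1, which sensory neurons keep into adult life, was broad. Cluster levels ran from 28.4 CPM in n22 to 102.2 CPM in n16, and its highest cluster was 1.35 times its median cluster, against 152 times for Prdm12. Jugular-like neurons had less in 12 of 12 pools, 50.1 ± 11.2 against 74.7 ± 4.83 CPM (SD, n = 12), although the ranges of 31.5 to 72.2 and 66.2 to 81.6 CPM overlapped. The log2 ratio was -0.56 ± 0.29. Satellite glia had 39.8 CPM and myelinating Schwann cells 13.9 CPM. In 22.2% of neurons at least 1 Isl1 UMI was found, against 15.8% of satellite glia (median depths 2971 and 3387 UMIs) and 2.90% of myelinating Schwann cells (1582 UMIs). With every nucleus thinned to 1500 UMIs the shares were 10.55%, 5.54% and 1.92%.

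Pou4f1 was low and leaned to the jugular side. Its highest clusters were n22 at 23.2 CPM (interval 14.5 to 35.1) and n23 at 22.0 CPM, then n27 and n26 (Chodl, Kcng1, Kctd12), both with Apoe among their leading genes, at 12.5 and 11.1 CPM. Jugular-like neurons had 8.55 ± 5.54 CPM and nodose-like neurons 1.55 ± 0.550 CPM (SD, n = 12), a log2 ratio of 0.94 ± 0.58, higher in 11 of 12 pools. The ranges overlapped because 1 jugular-like pool had no UMI. Satellite glia had 4.87 CPM, above the nodose-like level. The 64 UMIs in jugular-like neurons limit the precision of each pool.

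Tlx3 gave no pattern by type. No cluster exceeded 5.40 CPM (n10), satellite glia had 2.85 CPM, and no clusters next to each other in rank had Poisson intervals apart. Clusters further apart in rank could differ within a type. The nodose-like n10 (interval 3.93 to 7.25) lay above the nodose-like n0 at 1.30 CPM (0.692 to 2.22), by counting error only. Nodose-like neurons had 3.16 ± 1.40 CPM and jugular-like neurons 2.68 ± 2.30 CPM (SD, n = 12), with the higher value in nodose-like neurons in 7 pools and in jugular-like neurons in 5. A difference between the types was not detectable at this depth.

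Runx1 was present across the ganglion at very unequal levels. The highest clusters were the Drgx-rich n23 at 570.1 CPM (interval 510.9 to 634.4), n20 at 547.8 CPM, n24 at 387.3 CPM and n28 at 220.0 CPM. Among clusters that were not Drgx-rich, n8 (Edn3, Chrdl1, Kcng1) had 200 CPM and n14 179.9 CPM. The lowest were n17 at 24.2 CPM, n27 at 24.96 CPM and n22 at 27.4 CPM. Jugular-like clusters thus stood near both ends, with n24 among the highest and n17 and n22 among the lowest. The name of n22 depended on the clustering, since the cluster led by Spp1, Nefh and Kcna1 was larger and nodose-like with the members among the clustering genes (842 nuclei) or without the highest doublet scores (901 nuclei). The type average hid this, at 118 ± 36.4 CPM in jugular-like and 96.8 ± 10.5 CPM in nodose-like neurons (SD, n = 12), with a log2 ratio of 0.21 ± 0.57 and overlapping ranges. Jugular-like pools spread from 42.4 CPM (FL1) to 159.1 CPM (FL2).

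The share of nuclei with Runx1 says less than its level. It was 28.9% in neurons, 29.5% in satellite glia and 8.05% in myelinating Schwann cells (median depths 2971, 3387 and 1582 UMIs). After thinning the shares were 15.1%, 12.6% and 5.755%. Myelinating Schwann cells had 43.2 CPM of Runx1. Satellite glia had 85.7 CPM, and 11 of the 25 neuron clusters lay below that. They were the 7 clusters at 24.2 to 34.1 CPM and n10, n0, n4 and n18 at 70.5 to 80.8 CPM.

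Runx3 had 263 UMIs in neurons, and 81.4% of them fell in 5 clusters with 8.00% of the neurons. These were n21 at 30.1 CPM, n16 at 29.3 CPM, n27 at 24.96 CPM, n22 at 23.2 CPM and n15 at 18.3 CPM, and no other cluster exceeded 2.42 CPM. Satellite glia had 4.17 CPM. The group crossed the types, since n16 and n27 were nodose-like, n22 jugular-like in the clustering used here and n15 and n21 unnamed. Ntrk3, the receptor of neurotrophin-3, had 1078 CPM in n16, 779.7 CPM in n21, 212.7 CPM in n22, 163 CPM in n15 and 162.2 CPM in n27. It was also read in clusters low in Runx3, at 425.9 CPM in n17, 260.6 CPM in n13, 193 CPM in n14 and 181.6 CPM in n24.

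The same 5 clusters were poor in Runx1. Chosen here by their Runx3, they had 32.2 ± 9.64 CPM of Runx1 per pool (lowest 22.3, median 30.3, highest 54.7) against 119.9 ± 14.03 CPM in the other neurons (lowest 96.6, median 119.0, highest 150.1; SD, n = 12). Runx1 was lower there in 12 of 12 pools without overlap. The share of all genes whose ranges part between these groups of clusters was not computed. Low Runx1 did not always come with Runx3, as n5 (Xylt1, Sctr, Cckar) at 33.6 CPM and n17 were low in Runx1 with 0.336 and 2.42 CPM of Runx3. Across 23 clusters the correlation of the pair was -0.60 on the log2 scale, a description that rests on few Runx3 UMIs. Isl1 in the 5 clusters was 85.8 ± 15.6 CPM, against 71.7 ± 4.17 CPM in the other neurons, with overlapping ranges.

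**Figure D3:**
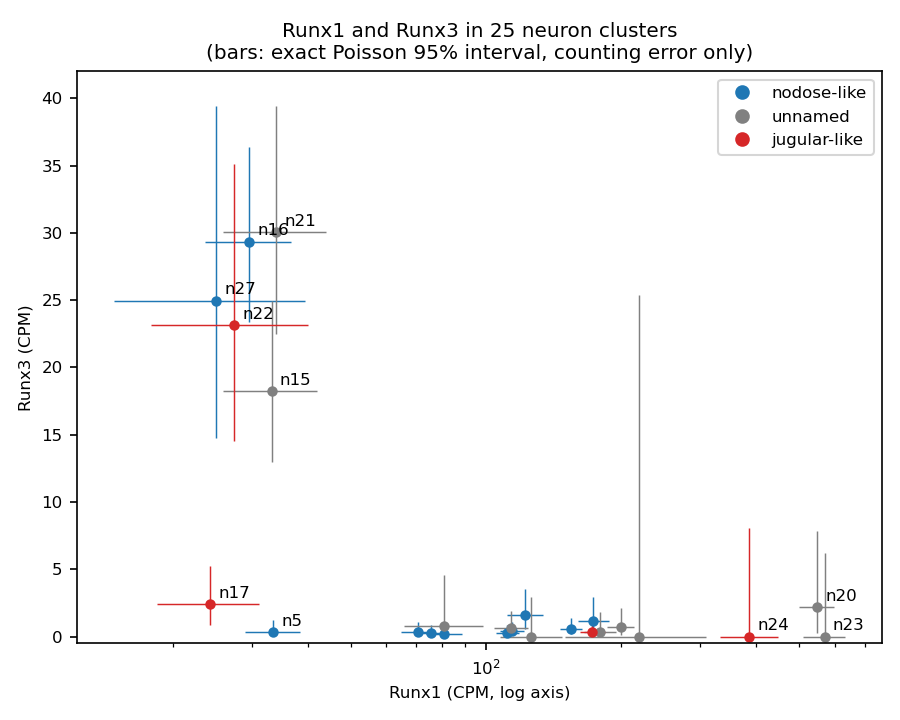
Runx3 against Runx1 (log axis) in 25 neuron clusters, coloured by class, with exact Poisson 95% intervals that cover counting error only. The 5 clusters above 18 CPM of Runx3 lie between 24.96 and 34.1 CPM of Runx1, n5 and n17 are low in both, and n20, n23 and n24 are high in Runx1 alone.

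By type the Runx3 average was uninformative. Jugular-like neurons had 4.41 ± 4.49 CPM and nodose-like neurons 2.00 ± 0.521 CPM (SD, n = 12), higher in jugular-like neurons in 6 pools and lower in 6. In jugular-like neurons 3 pools had no UMI. The mean log2 ratio of 0.28 ± 0.70 became -0.43 at clustering resolution 0.5, -0.42 with the members among the clustering genes and -0.45 without the highest doublet scores.

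The pair found together most often in neurons was Isl1 and Runx1, in 1953 of 25071 nuclei (7.79%), beside 6.61% of satellite glia. After thinning those shares were 1.575% and 0.260%. Prdm12 and Runx1 were found together in 277 of 2368 jugular-like nuclei (11.7%, exact 95% interval 10.4 to 13.1%), and in 0.830% of satellite glia. After thinning the shares were 2.61% and 0.0744%. Prdm12 and Isl1 were together in 6.00% of jugular-like nuclei and 0.447% of satellite glia. Runx1 and Runx3 met in 45 of 25071 neurons (0.179%), below the 0.607% of satellite glia, and Phox2a and Prdm12 in 1 neuron of 25071 (0.00399%). A pair's share depends on how often each gene is found. Isl1 was found in 22.2% and Runx1 in 28.9% of neurons, Runx3 in 0.933% of neurons and 1.85% of satellite glia. Phox2a was found in 122 neurons and Prdm12 in 854. Whether any pair met more or less often than these shares give was not tested. For single genes, Prdm12 was found in 27.1% of jugular-like and 0.242% of nodose-like nuclei, against 1.76% of satellite glia.

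Companion genes from a list of 30 factors and 15 receptors or channels place the members. The factor Maf had no entry by symbol. Among the factors whose pool ranges parted were Drgx, higher in jugular-like neurons, and Zeb2, Etv1 and Eya1, higher in nodose-like neurons. Drgx had helped to name the types. Eya1, a cofactor of placode development, had 460.9 CPM in nodose-like and 77.35 ± 21.3 CPM in jugular-like neurons, and the ETS factor Etv1 had 344.4 and 115.4 CPM. Receptors and channels that parted included Calca, Tac1, Ntrk3, Trpm8, Gfra3 and Scn11a, higher in jugular-like neurons, and Ntrk2, P2rx2 and Htr3a, higher in nodose-like neurons. Of those named, all but Ntrk2, Ntrk3 and Scn11a stood in the marker lists that named the types. The median log2 ratio was 0.21 over the 7 members and -0.05 over all 13972 genes. Cbfb, the Runx partner, was similar in both types, at 153.5 ± 25.9 and 135.7 ± 8.62 CPM.

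For each member the 3 genes with the most similar profile over 23 clusters were read from those that passed the low-count filter. Prdm12 was most like Mmp25 (r = 0.96), Rgs10 (0.90) and Mdfic2 (0.89). Runx3 was most like Krt8 (0.919), Avpr1a (0.873) and Gpnmb (0.865), and Phox2a like Nox4 (0.89), Htr2b (0.84) and Ntf3 (0.83). Runx1 was most like Myt1 (0.81), Klhl5 (0.81) and Ndufaf3 (0.78). For Isl1 they were Wrn (0.86), Lrp8 (0.79) and Zfp758 (0.78), for Pou4f1 P2ry1 (0.865), Itga7 (0.864) and Brap (0.854), and for Tlx3 Cyhr1 (0.84), Borcs6 (0.83) and Cep170b (0.83). With 1 CPM added in place of 5, 14 of these 21 genes remained, with only Cyhr1 for Tlx3 and only Itga7 for Pou4f1. Each is among the highest of all genes that passed the filter, so a high r follows in part from the choice.

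Pools differed widely in Prdm12 over all neurons. The lowest were ML3 at 3.01, FR2 at 3.27 and FL1 at 3.57 CPM, and the highest MR3 at 19.1, FL2 at 21.4 and ML1 at 30.15 CPM, with a median of 9.54 CPM. Jugular-like neurons made up 2.62%, 2.27%, 3.77%, 11.7%, 16.9% and 22.2% of the neurons of those 6 pools in the same order. Within jugular-like neurons the same pools had 74.5, 100.5, 74.2, 115.8, 95.9 and 103.3 CPM. The pool SD of 8.48 CPM in all neurons compares with 0.532 CPM over the 8 sublibraries, which split the same pools. In a sum over all neurons fewer cells of a type and less RNA per cell cannot be told apart.

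**Figure D4:**
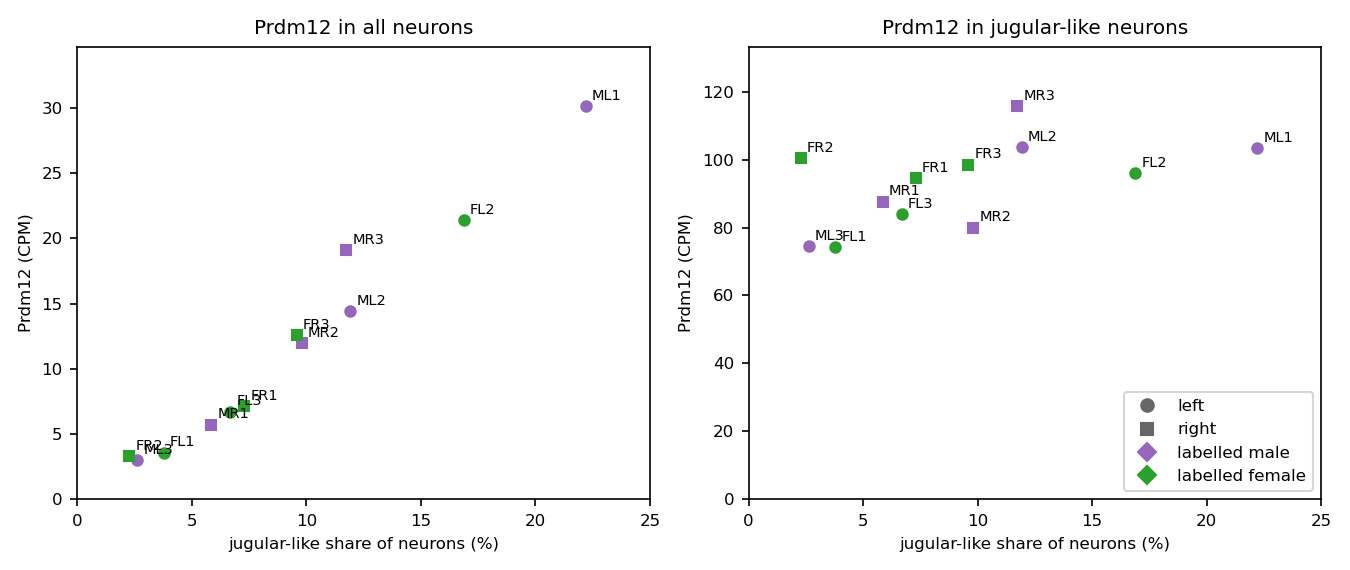
Prdm12 CPM in all neurons (left) and in jugular-like neurons (right) against the jugular-like share of neurons, with 1 point per pool (circles left, squares right side; colours labelled sex). In all neurons Prdm12 runs from 3.01 to 30.15 CPM over shares of 2.27% to 22.2%, and in jugular-like neurons from 74.2 to 115.8 CPM.

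The design asks whether left and right ganglia, or ganglia of the labelled sexes, differ. No member passed the test in any of these comparisons (edgeR's quasi-likelihood test, Benjamini-Hochberg adjusted p under 0.05 over all genes tested). By side in neurons 0.1% of 13972 genes passed, 14 genes, and 0 of 7 members. Without ML1 and FL1, whose Y-linked transcripts went against their labels, 2 genes passed and again no member. Tlx3 came closest, with 3.59 ± 1.26 CPM on the left and 2.56 ± 0.879 CPM on the right (SD, n = 6 pools each). Left pools ran from 1.75 to 5.50 CPM (median 3.42) and right pools from 1.49 to 3.99 CPM (median 2.57), so the sides overlapped. Its log2 fold change, right over left, was -0.57 ± 0.23 (SE) with an unadjusted p of 0.0227 and an adjusted p of 0.655 by edgeR's quasi-likelihood test.

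Runx1 was also lower on the right without passing. Left pools had 100.1 to 140.5 CPM (median 118.4) and right pools 91.8 to 118.3 CPM (median 108.9), with overlap. The log2 fold change was -0.15 ± 0.07 (SE), with an unadjusted p of 0.0471 and an adjusted p of 0.729 by edgeR's quasi-likelihood test. The remaining members had log2 fold changes of 0.42 ± 0.30 for Phox2a, -0.41 ± 0.46 for Prdm12, 0.06 ± 0.05 for Isl1, -0.07 ± 0.20 for Pou4f1 and 0.01 ± 0.19 for Runx3 (SE), with adjusted p from 0.855 to 1.00 by edgeR. The median over the 7 members was -0.07, and over all genes -0.01. Prdm12 turned to 0.03 without ML1. Of the companion genes that could be tested, 0 of 19 factors and 0 of 14 receptors or channels passed.

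By labelled sex 0% of genes passed in neurons with edgeR (2595 with an unadjusted p under 0.05, and 420 passed with DESeq2). Prdm12 had 14.05 ± 9.805 CPM in male-labelled and 9.11 ± 6.90 CPM in female-labelled pools (SD, n = 6 each), over ranges of 3.01 to 30.15 and 3.27 to 21.4 CPM. Its log2 fold change, female-labelled over male-labelled, was -0.74 ± 0.46 (SE, adjusted p 0.414 by edgeR), and -0.16 without ML1 and FL1, where 38 genes and no member passed. Their shares of jugular-like neurons were 10.69% ± 6.70 and 7.74% ± 5.17 (SD, n = 6 each). Tlx3 stood at 0.46 ± 0.23, Runx3 at 0.25 ± 0.19, Runx1 at -0.145 ± 0.07, Phox2a at -0.10 ± 0.30, Pou4f1 at 0.07 ± 0.20 and Isl1 at -0.07 ± 0.05 (SE), with adjusted p of 0.284 to 0.902 by edgeR. The interaction of side and sex gave 0% of genes (604 unadjusted, 0 with DESeq2) and 0 of 7 members.

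**Figure D5:**
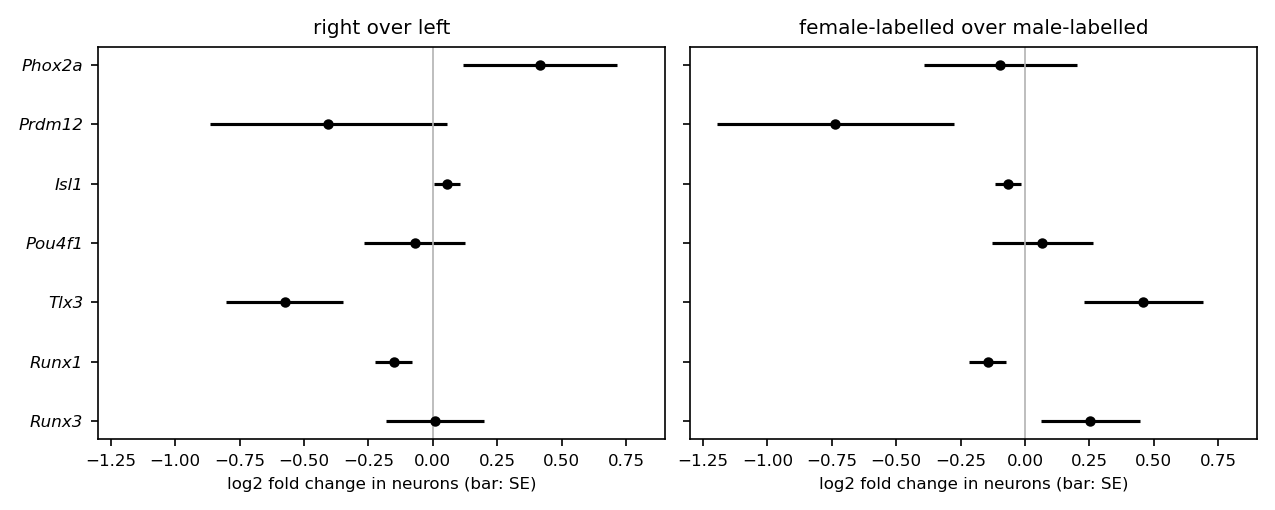
Log2 fold changes of the 7 members in neurons, right over left (left panel) and female-labelled over male-labelled (right panel), with bars for the SE of edgeR's fit. No member passed the adjusted threshold, and Prdm12 has the widest bars, an SE of 0.46 in both panels.

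Within the types the members stayed below the threshold. In nodose-like neurons 0.9% of 13330 genes passed by side and 0.938% by labelled sex, and 0 of the 6 members tested, since Prdm12 did not reach the low-count filter. Without ML1 and FL1 these counts of genes were 48 by side and 144 by labelled sex, in place of 120 and 125. Tlx3 had log2 fold changes of -0.53 ± 0.25 by side (adjusted p 0.482) and 0.66 ± 0.26 by labelled sex (adjusted p 0.191), both by edgeR. Runx1 by side stood at -0.16 ± 0.07 (edgeR, adjusted p 0.410) and Phox2a at 0.56 ± 0.35 (edgeR, adjusted p 0.631). In jugular-like neurons 0% of 8046 genes passed by side (161 unadjusted, 0 with DESeq2) and 0% by labelled sex (669 unadjusted, 1 with DESeq2), and only Prdm12, Isl1 and Runx1 had enough UMIs to be tested. Without ML1 and FL1, 14 genes passed by labelled sex and no member. Prdm12 differed there by 0.02 ± 0.13 between sides and by -0.07 ± 0.13 between labelled sexes (log2, SE). Isl1 stood at 0.21 ± 0.17 and -0.29 ± 0.17 and Runx1 at -0.10 ± 0.20 and -0.17 ± 0.20 in the same comparisons, with adjusted p from 0.674 to 1.00 by edgeR.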

How the data were processed

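Single nuclei from 12 pools were split over 8 sublibraries with a combinatorial barcoding kit. The deposited matrix holds raw UMI counts per gene and nucleus, per the file headers and values, and pools were read from the deposited nucleus table. The submitters' processing notes name mRatBN7.2, R 4.3.2 and Seurat 4.1.3, and the aligner is not given in the sources used here.

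A minimum of 300 genes and a ceiling of 5% for UMIs of mitochondrial genes left 36740 of 36741 nuclei. They were clustered with scanpy 1.11.5 and leidenalg 0.10.2 at resolution 1, leaving out the 7 members. Scrublet called 2 nuclei, so it did not work as a doublet caller here and none were removed. A rule set after the clusters were seen named them. Jugular-like clusters had Drgx UMIs of at least 10 times those of a gene not reported here and 3 jugular markers raised 2-fold, nodose-like clusters had 3 nodose markers raised 2-fold over jugular-like ones, and neither could have more markers of another class than its own among its 10 leading genes. Another 4403 neuron-type nuclei were set aside.

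Counts were summed per pool and class. edgeR 4.0.16 (quasi-likelihood test, TMM, filterByExpr, side plus labelled sex, R 4.3.3) was fitted over all genes, with Benjamini-Hochberg adjustment, and DESeq2 1.42.0 was an alternative. The fit was tested on simulated data. Named genes are the 7 members, 30 companion factors, 15 companion receptors or channels, and the 3 genes most like each member. The members and lists were chosen with earlier results of these data known. Exact Poisson and Clopper-Pearson 95% intervals cover counting error only.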

Additional observations from a re-analysis of the deposited data

Results flagged for a closer look

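Among 55 groups of pools or sublibraries checked for a value standing apart from the others, 3 were found, and chance alone gives about 1 in 20 groups. All 3 lay in female-labelled groups, which include FL1, whose Y-linked transcripts went against its label. Phox2a in neurons was 2.66 CPM in FR2 (22 UMIs), where the remaining 5 female-labelled pools had 0.868 to 1.295 CPM. Pou4f1 in neurons was 4.47 CPM in FL3 (38 UMIs), where the remaining 5 had 2.43 to 3.02 CPM. Isl1 in jugular-like neurons was 31.5 CPM in FL3 (18 UMIs), where the remaining 5 had 44.0 to 50.4 CPM.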

How the results depend on the processing

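No member passed the threshold in any of 481 alternative fits over 24 results. Counts of genes moved more. DESeq2 gave 62 genes by side and 420 by labelled sex in neurons, 198 and 373 in nodose-like neurons, and 1 by labelled sex in jugular-like neurons. Without the low-count filter they were 54 and 604 in neurons, 5 for the interaction, 387 and 788 in nodose-like and 5 and 78 in jugular-like neurons. Without ML1 and FL1 they were 2 and 38 in neurons, 48 by side in nodose-like and 14 by labelled sex in jugular-like neurons. Resolution 0.5 gave 24 by side, and resolution 2 gave 0 and 18 in neurons and 55 by side in nodose-like neurons. Removing the highest doublet scores gave 4 by labelled sex in neurons and 75 by side in nodose-like neurons. Leaving out clusters with a leading marker of another class, chosen after seeing the data, gave 25 and 42.

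Leaving out each pool gave 3 to 18 genes by side and 0 to 596 by labelled sex in neurons, 0 to 0 for the interaction, 83 to 188 and 0 to 814 in nodose-like neurons, and 0 to 0 and 0 to 4 in jugular-like neurons. The extremes were 3 without MR2, 596 and 814 without MR1, 188 without ML2, 0 without MR2 (nodose-like, labelled sex) and 4 without ML1. The causes were not tested.

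With the replicate block 3 genes passed by side in neurons and 185 in nodose-like neurons, and Runx1 by side in jugular-like neurons was 0.0636. Left and right pools of a number correlated at -0.0532, 0.156, -0.0665, -0.0506, -0.0917 and -0.011 after centring within groups of 3. Pools also differed in their neuron mix, and the sex labels of ML1 and FL1 are in doubt. These values therefore cannot tell whether equal numbers mark the same rats.

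Member fold changes that turned sign were small and not called. Runx3 by side was -0.14 without ML1 and FL1, -0.031 at resolution 2 and -0.063 without clusters with other markers. Phox2a by labelled sex was 0.000736 at resolution 0.5 and 0.0693 at resolution 2. In jugular-like neurons Prdm12 by side was -0.0229 without the highest doublet scores and -0.0191 at resolution 0.5, and by labelled sex 0.000603 without ML1 and FL1 and 0.0492 at resolution 0.5. Runx1 there was 0.0172 by side with DESeq2 and 0.0518 by labelled sex without ML1 and FL1. Leaving out 1 pool, the ranges that crossed 0 were, by side in neurons, -0.66 to 0.032 for Prdm12, -0.163 to 0.102 for Pou4f1 and -0.0741 to 0.107 for Runx3. By labelled sex they were -0.381 to 0.108 for Phox2a and -0.0834 to 0.172 for Pou4f1. In jugular-like neurons by side they were -0.0431 to 0.101 for Prdm12 and -0.252 to 0.0504 for Runx1.

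The Prdm12 type ratio was 4.28 without the highest doublet scores and 4.31 after thinning. The Runx3 type ratio was -0.43, -0.42 and -0.45 under resolution 0.5, members in the clustering and doublet removal. After thinning, co-detection in jugular-like nuclei was 2.61% for Prdm12 with Runx1 and 0.905% for Prdm12 with Isl1, and in all neurons 0.0193% for Runx1 with Runx3, 0% for Phox2a with Prdm12 and 1.57% for Isl1 with Runx1. Depth limits Phox2a, Tlx3, Runx3 and Pou4f1 most, with 129 to 307 UMIs each in neurons.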
